A study of Mus musculus with 4 samples.

Results

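The cells described are insulin-rich beta cells with little RNA of any other islet hormone, taken from single-cell RNA sequencing of mouse pancreatic islets. A cell was a member if it had 500 or more genes detected, at most 20% mitochondrially encoded unique molecular identifiers (UMIs, each a tagged transcript molecule), and Ins1 and Ins2 together at 10% or more of its UMIs. It also had Gcg, Sst, Ppy and Pyy (glucagon, somatostatin, pancreatic polypeptide and peptide YY) each below 1% of its UMIs, fewer than 3 of 6 cell cycle genes detected (Mki67, Top2a, Cdk1, Birc5, Ube2c and Cenpf), and fewer than 4 UMIs summed over 6 interferon-induced genes (Ifit1, Ifit3, Isg15, Rsad2, Oasl2 and Irf7). These measured values chose the cells, so the levels of the insulin genes, the other hormones and the genes of both filters are given as a description only. Of 43205 cells that passed the gene and mitochondrial limits, 22189 were members, or 51.4%.

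The study examined islets of male mice aged 8 weeks in 4 libraries, 1 for each group. The Cre-negative library came from a mouse genotype homozygous for floxed Tet2 and Tet3, whose proteins oxidise methylated cytosine in DNA, with no Pdx1-Cre transgene. The Cre-positive library carried the same floxed alleles with Pdx1-Cre, a transgene active across the developing pancreatic epithelium and so not in beta cells alone. The other libraries held islet cells of offspring born to control mothers (control offspring) and of offspring exposed in the womb to maternal hyperglycaemia (IHG offspring); no genotype is given for either of these in the labels. Collagenase-isolated, handpicked and cultured islets were dissociated with trypsin and captured on the SeekOne MM microwell platform, which tags the 3′ end of transcripts. The number of mice per library is not stated in the labels. With 1 library per group no difference between groups has a replicate check, and no test was run. Intervals are exact 95% intervals on UMIs or cells and cover counting error only. Animal, culture, dissociation and library preparation cannot be told apart from genotype or maternal condition.

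Beta cells make insulin in response to glucose. Glucose enters the mouse beta cell through the transporter Slc2a2 (GLUT2), is phosphorylated by glucokinase, and its metabolism closes ATP-sensitive potassium channels, which opens calcium channels and releases insulin granules. The transcription factors Pdx1, Nkx6-1 and Mafa drive insulin transcription, and the mouse beta cell gains Mafa and the peptide urocortin 3 (Ucn3) as it matures after birth.

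The rule kept very different shares of the libraries. In the Cre-negative library 2839 of 5928 cells were members (47.9%, Clopper-Pearson interval 46.6 to 49.2). In the Cre-positive library 2462 of 9587 were members (25.7%, 24.8 to 26.6). The control offspring library gave 10910 of 15752 (69.3%, 68.5 to 70.0) and the IHG offspring library 5978 of 11938 (50.1%, 49.2 to 51.0). The Cre-positive islet library therefore held the lowest share of these cells and the control offspring library the highest. The part of islet picking and dissociation in these shares was not tested.

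Each filter removed a different number of insulin cells. Insulin made up 10% or more of the UMIs in 3095, 3295, 12175 and 6818 cells of the libraries. Sets of 4 values here run from Cre-negative through Cre-positive to the control and then the IHG offspring. The limit on other hormones then removed 233, 601, 1186 and 756 of them, or 7.53%, 18.2%, 9.74% and 11.1%, so its share too was highest in Cre-positive. The cell cycle limit removed 16, 7, 32 and 51. The interferon limit removed 7, 225, 47 and 33. Those 225 cells were 6.83% of the Cre-positive insulin cells, against 0.226%, 0.386% and 0.484% in the other libraries, so the Cre-positive members are the ones most shaped by this filter. Just outside the insulin threshold, 34, 6, 20 and 15 cells that passed every other limit lay from 9% to under 10%, and just inside it 40, 17, 20 and 11 lay from 10% to under 11%. Over all kept cells, 103, 142, 124 and 92 lay from 8% to under 10% and 125, 172, 175 and 104 from 10% to under 12%. Cells at 10% insulin or more whose strongest other hormone lay from 0.8% to under 1% numbered 22, 31, 34 and 39, and those from 1% to under 1.2% numbered 22, 21, 30 and 29.

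**Figure D1:**
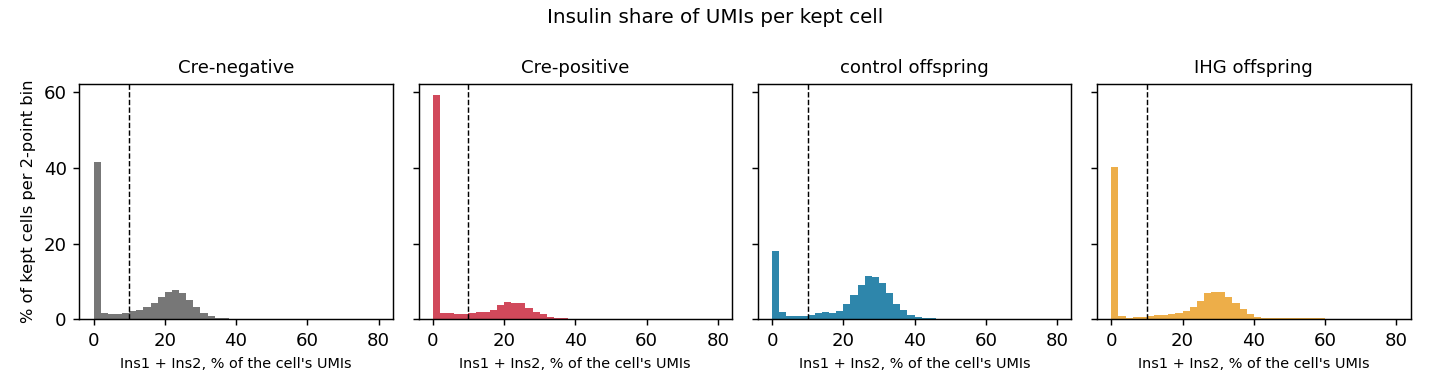
Distribution of the insulin share (Ins1 plus Ins2 as a percent of a cell's UMIs, in bins of 2 points) over all cells that passed the gene and mitochondrial limits, with 1 panel per library and the 10% threshold as a dashed line. The cells at 10% insulin or more, 3095, 3295, 12175 and 6818 in the 4 libraries, form a broad upper group in each.

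The members were sequenced to unequal depth. Their median UMIs per cell were 10107, 10094, 5938 and 9012, and their median genes per cell 3156, 2970, 2028 and 2594, so the control offspring members were the shallowest. Mitochondrially encoded UMIs made up a median of 7.90%, 7.88%, 9.0% and 8.41%. Summed over members, the libraries held 31641658, 29336756, 80340761 and 58099924 UMIs. Cell barcodes shared between pairs of libraries numbered 58 to 246, or 0.903% to 2.04% of the smaller library of the pair. Levels are given as CPM (counts-per-million) of the summed member UMIs, which compare 1 gene between libraries and, with 3′ tags, do not depend on transcript length.

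Ins1 and Ins2 chose the cells, so their levels describe the members and do not support the label. Iapp was not part of the rule. Insulin RNA filled about the same part of a member in the first pair of libraries and more in the other pair, with median shares of 22.6%, 23.1%, 28.3% and 30.2%. Ins2 (GRCm38 chromosome 7, minus strand) stood at 185075, 185803, 227457 and 246089 CPM, and Ins1 (chr19:52264297-52265476, plus strand) at 46744, 57195, 67020 and 78352 CPM. Both insulin genes were highest in IHG offspring and lowest in Cre-negative members, and as close paralogs they could share reads. Iapp (chr6:142298423-142303961, plus strand), which encodes the co-secreted peptide amylin, varied little, at 50760, 51999, 46259 and 49675 CPM.

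The markers of maturity varied far more than the hormones. Ucn3 (chr13:3940688-3945349, minus strand), a peptide released with insulin that acts on neighbouring delta cells, stood at 177, 529, 914 and 805 CPM. Mafa (chr15:75745490-75748228, minus strand), the insulin gene activator of mature beta cells, stood at 444, 516, 1276 and 831 CPM. The Cre-negative members were lowest for both genes and the control offspring highest. Slc2a2 (chr3:28697903-28731359, plus strand) had another order, at 671, 267, 724 and 658 CPM, with the Cre-positive members alone low. Glp1r, the receptor for the incretin GLP-1, followed Slc2a2 at 622, 294, 628 and 547 CPM. Pdx1 was near level at 106, 125, 110 and 109 CPM, as was Nkx6-1 at 648, 694, 687 and 681 CPM. G6pc2, the islet glucose-6-phosphatase that opposes glucokinase, stood at 1513, 1259, 1244 and 1468 CPM. The floxed library without Cre and the control offspring library are both controls in the study. Ucn3 and Mafa set them apart, while Slc2a2, Glp1r, Pdx1, Nkx6-1 and G6pc2 were within 1.5-fold between them.

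**Figure D2:**
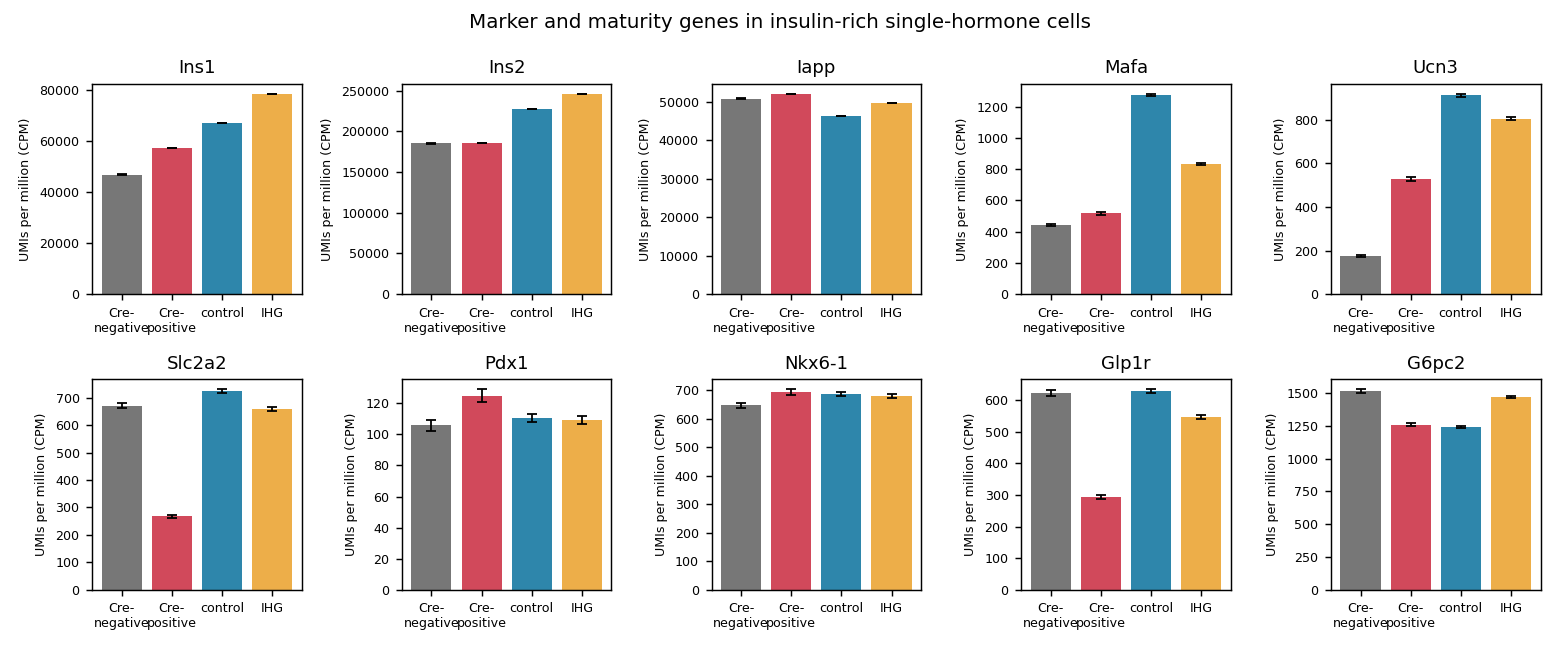
Level of 10 beta cell genes (CPM of summed member UMIs, bars from 0) in the 4 libraries, with exact Poisson 95% intervals for counting error. Ucn3 and Mafa are lowest in the Cre-negative bar and highest in the control offspring bar, Slc2a2 and Glp1r are lowest in the Cre-positive bar, and Pdx1 and Nkx6-1 are nearly level.

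After each cell was thinned to 3000 UMIs, Ucn3 had at least 1 UMI in 25.5%, 68.6%, 89.7% and 83.9% of members. In endothelial cells of the same libraries, which should lack it, the thinned shares were 0% (0 of 72 cells, Clopper-Pearson upper limit 4.99%), 2.96%, 7.90% and 4.58%. Mafa was found in 53.6%, 63.3%, 92.1% and 77.8% of thinned members, against 1.39%, 9.88%, 18.7% and 7.39% of endothelial cells. Before thinning, the members' shares were 39.2%, 87.2%, 95.9% and 94.9% for Ucn3 and 71.1%, 86.6%, 96.2% and 90.8% for Mafa. The median UMIs of the members deep enough to thin were 10185.5, 10322.5, 6040 and 9059, and those of the endothelial cells 4838, 4388, 4363 and 4518.5. The control offspring members led both shares although they had the lowest depth. The members' shares lay above the endothelial shares in every library, and the source of the endothelial UMIs was not tested.

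The promoters of Iapp and Ucn3 are shown because these markers behaved so differently across the libraries. Each is the run of 250 bases before the RefSeq start in GRCm38.p6, Iapp at chr6:142298175-142298424 on the plus strand and Ucn3 at chr13:3945350-3945599 on the minus strand. Capitals mark the E-box CATCTG, of the kind read by NeuroD1, and the short homeodomain core TAATG, of the kind read by Pdx1, each on either strand (a CATTA or CAGATG in capitals is the other strand of these letters).
Iapp: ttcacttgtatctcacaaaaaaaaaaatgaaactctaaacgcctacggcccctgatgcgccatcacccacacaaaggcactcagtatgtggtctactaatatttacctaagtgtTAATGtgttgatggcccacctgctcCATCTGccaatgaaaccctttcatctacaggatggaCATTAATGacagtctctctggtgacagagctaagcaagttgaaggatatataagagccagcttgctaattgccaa
Ucn3: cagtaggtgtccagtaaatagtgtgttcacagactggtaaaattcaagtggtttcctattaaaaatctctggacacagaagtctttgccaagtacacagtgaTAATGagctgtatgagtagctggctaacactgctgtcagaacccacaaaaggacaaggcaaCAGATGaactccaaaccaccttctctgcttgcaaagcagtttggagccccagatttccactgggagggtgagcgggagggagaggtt
CATCTG lay 111 bases before the Iapp start and 87 bases before the Ucn3 start. TAATG lay 136, 75 and 72 bases before the Iapp start, the last pair overlapping as CATTAATG, and 148 bases before the Ucn3 start. Of the 4 markers with an entry among the promoters, Iapp, Ins1 and Ucn3 held CATCTG, as did 14.4% of 32851 RefSeq windows. TAATG was found in 2 of the 4, against 23.9% of all windows. The markers that varied least and most thus hold the same short motifs in this window, which describes letters and not binding.

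The members can be set against the cells most like them in the same libraries, which the limits on insulin and on other hormones kept out. Insulin-low cells had 2% to under 10% insulin and the same other limits, and numbered 121, 37, 55 and 32. They also had 3 or more of Mafa, Ucn3, Slc2a2, Nkx6-1, Pdx1, G6pc2, Slc30a8 and Glp1r detected. Endothelial, macrophage and stellate markers were each limited to fewer than 3. Members had neither of these added limits. Mafa, Ucn3 and Nkx6-1 thus helped choose the insulin-low cells, and their levels there are a description only. Cells with insulin and Gcg or Sst at 1% or more numbered 147, 507, 1069 and 617. Mafa in the insulin-low cells was at 42.3, 369, 679 and 185 CPM of the UMIs that were not insulin (non-insulin CPM), against 579, 682, 1809 and 1231 in members. In the cells with Gcg or Sst it was at 150, 314, 918 and 616. Members had the highest Mafa of the 3 kinds of cell in every library. Ucn3 was at 230, 699, 1296 and 1192 in members, 11.7, 300.1, 543 and 438 in insulin-low cells and 63.7, 346, 705 and 641 in cells with Gcg or Sst, so members were again highest in every library. Nkx6-1 differed less between members (843, 917, 974 and 1009) and insulin-low cells (691, 916, 1170 and 907). The insulin-low cells had lower median UMIs, at 6228, 2871, 1659 and 4957.5, and the cells with another hormone higher ones, at 10441, 18823, 10381 and 11009. No test was possible between cells of 1 library, and mixed-hormone barcodes may hold more than 1 cell.

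Within each library, members differed in how much of their RNA was insulin, and few other genes moved with that share in every library. Members were ranked by insulin share and the top quartile was set against the bottom quartile, with all other genes in non-insulin CPM. The quartile limits were 19% and 25.9% insulin in Cre-negative, 19.8% and 26.5% in Cre-positive, 25% and 31.7% in control offspring and 26.5% and 34.1% in IHG offspring members. Of 6375 genes at 20 non-insulin CPM or more in either quartile of every library, 2 (0.0314%) were at least 1.5-fold higher in the insulin-rich quartile everywhere, and 18 (0.282%) were at least 1.5-fold lower. By any amount, 694 (10.9%) were higher in all 4 and 1991 (31.2%) were lower in all 4. The insulin-rich quartile was also deeper, with median UMIs of 8206.5 against 11352, 8569 against 10746, 4975 against 7286.5 and 7863 against 10197 (bottom against top). With every cell thinned to 3000 UMIs, 3 genes were at least 1.5-fold higher and 13 lower in all 4 libraries.

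The genes higher in insulin-rich cells of every library were Cox6a2 and Trpm5. Cox6a2, a muscle-type subunit of cytochrome c oxidase, went from 7.09 to 23.3 non-insulin CPM in Cre-negative members, from 24.1 to 48.3 in Cre-positive, from 81.2 to 211 in control offspring and from 65.1 to 165 in IHG offspring. Its ratio lay between 2.01 and 3.28 in the 4 libraries, and between 2.25 and 4.77 at equal depth. Trpm5, a calcium-activated cation channel that takes part in beta cell excitation, had ratios between 1.61 and 4.30, and between 1.68 and 4.21 at equal depth. Without the Ins1-poor cells described next, the Trpm5 ratios lay between 1.53 and 2.41. Iapp differed by less, from 50753 to 77064, from 60796 to 74931, from 56017 to 74571 and from 66793 to 77762 non-insulin CPM.

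The maturity markers differed most between these quartiles in the Cre-negative library. There Mafa went from 294 to 756 and Ucn3 from 90.5 to 402 non-insulin CPM between the bottom and top quartiles. In control offspring the same quartiles gave 1588 and 1858 for Mafa and 1115 and 1415 for Ucn3. Slc2a2 was higher in the insulin-rich quartile of Cre-negative members (630 and 908), Cre-positive members (295 and 403) and IHG offspring members (757 and 1108), and level in control offspring (979 and 978). The difference in slope between libraries has no test. The Ins1-poor cells described below made up 16.2% of Cre-negative members, and their median insulin share there was 16.7%. That lies under the bottom quartile limit of 19%, and Mafa and Ucn3 were low in these cells. Their part in the Cre-negative difference was not tested.

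The genes lower in insulin-rich cells of every library included receptors, enzymes and regulators. Ppp1r3c, a glycogen-targeting phosphatase subunit, was 2.07-fold to 2.45-fold lower, and the secreted glutathione peroxidase Gpx3 2.04-fold to 3.33-fold. The transcription factor Gata6 was 1.95-fold to 3.39-fold lower, the calcium release channel Itpr1 1.69-fold to 3.13-fold and the tetraspanin Cd81, a surface marker of immature beta cells, 1.67-fold to 4.78-fold. Adgrf5, an adhesion receptor, was 2.41-fold to 8.40-fold lower. At equal depth Ppp1r3c, Gpx3, Gata6, Itpr1 and Cd81 were again at least 1.5-fold lower in every library, and Adgrf5 was not among the genes called. Without the top 6% of Scrublet scores neither Adgrf5 nor Itpr1 was called. Without the Ins1-poor cells, 6 of the 18 stayed at least 1.5-fold lower in every library, and these were Adgrf5, Gpx3, Gata6, Cd81, Itpr1 and Gnai1. By direction alone, 17 of 20 heat shock chaperone genes and 16 of 24 activity-induced genes were lower in all 4 libraries. Among granule and proinsulin processing genes 13 of 32 were higher in all 4, as were 20 of 54 nuclear genes of oxidative phosphorylation. The share for all genes, 10.9% higher and 31.2% lower, is the level to read these against.

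Some members had little Ins1 for their insulin. In the median member, the share of insulin UMIs that came from Ins1 was 20.1%, 22.8%, 22.2% and 23.2%. Below it the cells ran on in a tail, largest in the Cre-negative library, and a limit of 12% was chosen after the values were seen. No gap lay at this limit. The Cre-negative tail had a small second rise, with 53 cells from 4% to under 6% and 106 under 2%. Under this limit fell 460 Cre-negative members (16.2%, 14.9 to 17.6), 23 Cre-positive members (0.934%, 0.59 to 1.40), 58 control offspring members (0.532%, 0.40 to 0.69) and 112 IHG offspring members (1.87%, 1.55 to 2.25). At a limit of 8% the shares were 11.1%, 0.203%, 0.183% and 0.937%, and at 15% they were 22.5%, 3.29%, 1.83% and 3.45%. The Cre-negative library was highest at each limit, and IHG offspring were above control offspring at each.

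**Figure D3:**
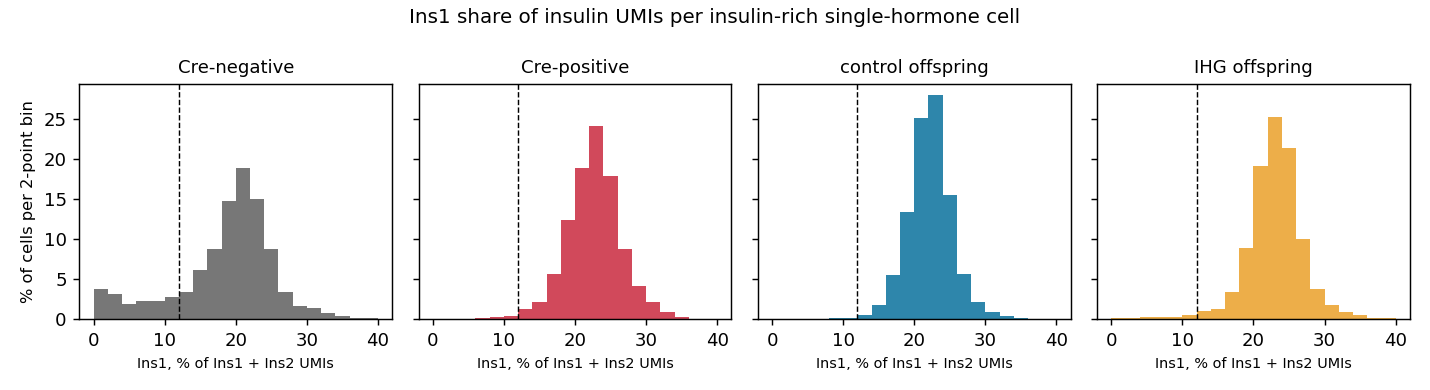
Distribution over members of the Ins1 share of insulin UMIs (percent of Ins1 plus Ins2), with 1 panel per library and the 12% limit as a dashed line. The Cre-negative panel has the largest share of cells left of the line (16.2% of members), against 0.934%, 0.532% and 1.87% in the panels for Cre-positive members, control offspring and IHG offspring.

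These Ins1-poor cells had less RNA and less insulin. Their median UMIs were 7818 against 10580 in the other Cre-negative members, 8263 against 10123 in Cre-positive, 3793.5 against 5946 in control offspring and 5951.5 against 9074 in IHG offspring. Their median insulin share was 16.7% against 23.6%, 15.3% against 23.2%, 15.2% against 28.3% and 17.2% against 30.3%. Doublet scores did not set them apart in the same way in each library. Among the top 6% of Scrublet scores were 2.61% of Ins1-poor against 5.21% of other Cre-negative members, 26.1% against 3.73% in Cre-positive, 6.90% against 4.02% in control offspring and 3.57% against 4.16% in IHG offspring. Peptide YY, a gene of the selection rule, was higher in them, at 1669 against 641, 2408 against 154 and 2555 against 240 non-insulin CPM in Cre-negative, control offspring and IHG offspring. Ppy, another gene of the rule and the defining marker of PP cells, was at 127 against 65.5, 742 against 67.0 and 1003 against 84.8.

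Maturity genes were low in the Ins1-poor cells. The Cre-positive library was left out of gene ratios, since it had 23 such cells. Mafa stood at 18.6 non-insulin CPM in Ins1-poor and 668 in other Cre-negative members, at 343 and 1814 in control offspring and at 73.7 and 1248 in IHG offspring. The ratios were 35.9-fold lower (28.0 to 46.9) in Cre-negative, 5.30-fold in control offspring and 16.9-fold in IHG offspring. Ucn3 was 31.6-fold lower in Cre-negative (8.39 against 265), 3.13-fold in control offspring (415 against 1299) and 4.54-fold in IHG offspring (266 against 1206). G6pc2 was 7.30-fold, 2.30-fold and 4.16-fold lower in these libraries. Gad1, which makes the transmitter GABA, was 7.62-fold, 8.37-fold and 19.5-fold lower, and Trpm5 15.5-fold, 5.01-fold and 21.5-fold. Slc2a2 was 2.39-fold, 2.79-fold and 3.61-fold lower. Nkx6-1 differed far less, at 652 against 874, 914 against 974 and 868 against 1011 non-insulin CPM.

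Other genes were high in the same cells. Gpx3 (chr11:54902453-54910377, plus strand) stood at 169 against 35.3, 192 against 14.9 and 502 against 34.5 non-insulin CPM, or 4.79-fold, 12.9-fold and 14.6-fold higher. Rbp4 (chr19:38116629-38125281, minus strand), a secreted retinol carrier, was 4.63-fold, 6.20-fold and 8.36-fold higher. Neurog3, the factor that starts endocrine differentiation, was low in absolute level but 7.90-fold, 13.8-fold and 7.41-fold higher, at 39.6 against 5.01, 72.7 against 5.28 and 65.2 against 8.79 non-insulin CPM. Fev, a factor of endocrine progenitors, was 6.68-fold, 25.7-fold and 20.9-fold higher, at 30.3 against 4.53, 77.9 against 3.03 and 87.4 against 4.19. Neurog3 and Fev were under 50 non-insulin CPM in Cre-negative, so they are not among the genes counted below. In control offspring their ratios rest on 14 and 15 UMIs in the Ins1-poor cells. The thioredoxin inhibitor Txnip was 2.96-fold, 1.81-fold and 2.25-fold higher. Of 3398 genes at 50 non-insulin CPM or more in either set of cells of all 3 libraries, 46 (1.35%) were at least 1.5-fold higher in every one and 43 (1.27%) lower. Mafa, Ucn3 and Slc2a2 are 3 of the 4 tested beta cell markers, and all 3 were in the lower set. Of 3 tested genes from a list kept low in mature beta cells, 0 were in the higher set and Th was in the lower. Rbp4 and Neurog3 are also on the list of delta cell markers, and the part of RNA from such cells was not tested. The genes named here were chosen after their values were seen, and the cells were chosen by their Ins1 share, so these ratios describe the set and test nothing.

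**Figure D4:**
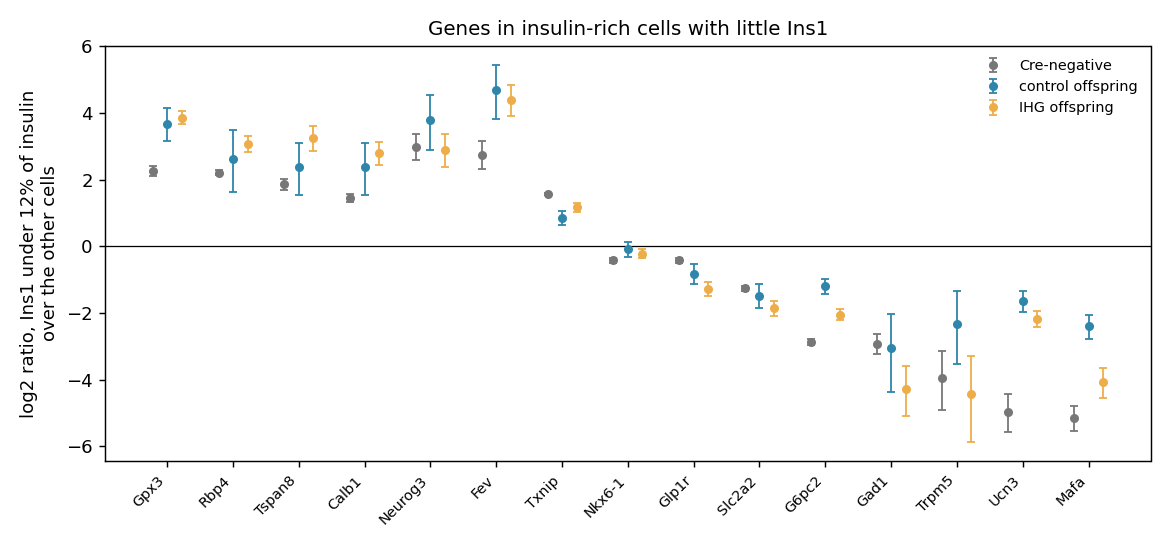
Ratio (log2, with exact 95% counting intervals) of the level in Ins1-poor members to that in the other members for 15 genes in the Cre-negative, control offspring and IHG offspring libraries. Gpx3, Rbp4, Neurog3, Fev and Txnip lie above 0 and Mafa, Ucn3, G6pc2, Gad1, Trpm5 and Slc2a2 below it in each of the 3 libraries.

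Variation from cell to cell is given as a description, since the Fano factor (variance over mean, which is 1 for pure counting) also rises with abundance, and the insulin genes are both abundant and part of the rule. In members thinned to 3000 UMIs, it had a median near 1 over 3251 genes, at 1.04, 1.04, 1.03 and 1.04. It was 26.0, 30.0, 21.8 and 39.4 for Ins2 and 32.4, 26.4, 15.8 and 37.3 for Ins1. Chga, the granule protein chromogranin A, had 18.3, 18.6, 7.43 and 14.2, and Iapp 15.6, 6.42, 6.06 and 10.6. The heat shock gene Hspa1a had 3.85, 5.66, 6.62 and 12.2.

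Cells with insulin at 50% of UMIs or more formed a tail of the distribution. It held 2, 18 and 39 cells in the first 3 libraries and 303 in IHG offspring, which is 5.07% of IHG offspring members (4.53 to 5.66). Those 303 cells were set against the 3701 IHG offspring members with 25% to under 35% insulin. The tail had more UMIs (median 14375 against 9117) and about as many genes (2611 against 2637). Its mitochondrial share of all UMIs was lower (4.96% against 8.88%). Insulin UMIs count in that total, so a higher insulin share lowers the mitochondrial share by construction. Of 7101 genes, 370 (5.21%) were at least 1.5-fold higher in the tail and 45 (0.634%) lower. Ndufb7, a subunit of respiratory complex I, was 6.97-fold higher, the selenoprotein Selenom 4.31-fold, and the ribosomal protein genes Rps19, Rpsa, Rpl36 and Rplp1 5.29-fold, 4.54-fold, 4.53-fold and 4.48-fold. The median of 82 ribosomal protein genes was 0.04 on the log2 scale, with 12 of 82 called higher and 0 lower, so a few and not most members of that family stood out. Doublet scores were alike, with 3.96% of the tail and 3.84% of the others among the top 6%. All of these genes were named after their values were seen.

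The next comparison asks how floxed islets with Pdx1-Cre differed from those without it, in these cells. The targeted genes come first. Tet2 was at 44.7, 33.3, 40.3 and 32.5 CPM, Tet3 at 33.9, 26.8, 30.4 and 26.1 CPM and Tet1, which was not floxed, at 20.8, 9.78, 10.0 and 9.50 CPM. Tet2 and Tet3 RNA was thus lower with Cre than without it, by less than 1.5-fold, but no lower than in IHG offspring. Tet1 RNA was also lower with Cre, and by more than 1.5-fold. Since 3′ tags can fall outside the floxed exons, the deletion itself is not checked by these levels.

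Cre-positive members differed from Cre-negative members in a large part of the transcriptome. Of 6431 genes at 20 CPM or more in either library, 504 (7.84%) passed 1.5-fold upwards with Cre and 1099 (17.1%) downwards. The median over all genes was -0.18 on the log2 scale, and the split depends on the scaling: 31.4% of the called genes were higher here, and 54.6% (764 against 635) when libraries were scaled by the median of ratios. Of the markers, Ucn3 was 3.00-fold higher (2.91 to 3.09), Slc2a2 2.51-fold lower (2.44 to 2.57) and Mafa 1.16-fold higher. Without the Ins1-poor cells Ucn3 was 2.64-fold higher and Mafa 1.02-fold.

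The 10 leading higher genes held genes of stress responses (Nupr1, Trib3, Bag3, Atf3 and Chac1), Fosl2, and the endothelial genes Flt1, Plvap and Kdr with Timp3, whose ratios are given further on. Nupr1 (chr7:126623249-126630861, minus strand), a small chromatin protein induced by stress, was at 0.506, 58.3, 23.7 and 23.4 CPM in the 4 libraries, 115-fold higher with Cre (70.8 to 202). The pseudokinase Trib3, a target of the integrated stress response, was at 1.30, 29.7, 4.61 and 6.75 CPM, 22.9-fold higher (16.8 to 32.2). Chac1, a glutathione-degrading enzyme of the same response, was at 6.38, 71.7, 13.6 and 15.8 CPM, 11.2-fold higher. The co-chaperone Bag3 was at 15.2, 210, 115 and 91.5 CPM, 13.9-fold higher. All 4 genes were highest in Cre-positive and lowest in Cre-negative members, with both offspring libraries between.

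Most genes of the stress lists were higher with Cre, but the lists were chosen with earlier results of these data known. Of 19 tested heat shock chaperone genes, 16 were at least 1.5-fold higher and 0 lower, against 7.84% and 17.1% of all genes, and their median was 1.19. Hsph1, a nucleotide exchange factor for HSP70, was at 105, 665, 283 and 224 CPM, and Dnaja1, an HSP40 co-chaperone, at 310, 1186, 567 and 538 CPM. Of 40 tested genes of the unfolded protein and integrated stress responses, 23 were higher and only Txnip was lower, for a median of 0.75. Phgdh, the first enzyme of serine synthesis, was 9.08-fold higher, the transcription factor Atf5 6.62-fold and the mitochondrial folate enzyme Mthfd2 4.72-fold. Across 14 settings of scaling, floor and cell choice the medians lay between 1.13 and 1.37 for heat shock genes and between 0.67 and 0.93 for the stress responses. Heat shock genes were higher in endothelial cells of the Cre-positive library as well. Thinned to 3000 UMIs, Hsph1 had a UMI in 11.1% of Cre-negative and 82.6% of Cre-positive endothelial cells, Bag3 in 20.8% and 76.5%, and Atf3 in 29.2% and 66.6%. In members the shares were 25.2% and 77.2% for Hsph1, 4.84% and 37.4% for Bag3 and 1.68% and 17.8% for Atf3. Chac1 had a UMI in 1.39% and 4.35% of endothelial cells and in 1.65% and 16.6% of members, and Trib3 in 1.39% and 3.16% of endothelial cells and in 0.322% and 7.84% of members. Whether these differences differ between the cell types was not tested. The metallothionein genes Mt1 and Mt2, which bind zinc, were 6.78-fold and 6.31-fold higher, from 777 to 5269 CPM for Mt1.

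The upstream windows of Chac1 and Nupr1 are printed because both were among the 10 higher genes of this comparison and both hold the C/EBP-ATF response element TGATGNAA, the composite site that ATF4 binds. They lie at chr2:119350992-119351241 on the plus strand and chr7:126625471-126625720 on the minus strand, and capitals mark the element, which reads TTGCATCA on the strand shown.
Chac1: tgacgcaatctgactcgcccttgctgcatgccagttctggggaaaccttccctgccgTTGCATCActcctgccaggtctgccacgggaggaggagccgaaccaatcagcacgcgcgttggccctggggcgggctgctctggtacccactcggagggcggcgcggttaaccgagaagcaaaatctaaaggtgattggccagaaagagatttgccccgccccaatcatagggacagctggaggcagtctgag
Nupr1: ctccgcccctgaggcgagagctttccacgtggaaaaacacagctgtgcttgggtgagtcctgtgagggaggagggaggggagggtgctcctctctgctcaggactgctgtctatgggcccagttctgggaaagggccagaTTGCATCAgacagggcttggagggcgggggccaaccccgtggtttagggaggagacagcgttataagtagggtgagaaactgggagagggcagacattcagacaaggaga
The element lay 193 bases before the Chac1 start and 110 bases before the Nupr1 start. It was found in 7 of 37 matched genes of the list of 42, which were Aars, Asns, Chac1, Herpud1, Nupr1, Slc7a11 and Vldlr, or 17.5% of their 40 windows, against 3.45% of all windows. Of these, Aars, Asns, Chac1, Herpud1, Nupr1 and Vldlr were among the 23 genes called higher. Trib3, also among the 10 higher genes, and Atf5 were searched as well, and their windows held no match. A heat shock element was also searched for, and the windows of Bag3, Hsph1, Dnajb1 and Hspa1b held none. It was found in 2 of 16 matched heat shock chaperone genes, Hspd1 and Hspe1. A match describes letters and not binding.

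Activity-induced genes, which calcium and cAMP switch on within minutes, were mostly higher with Cre as well. Of 31 tested, 17 were higher and 4 lower, against 7.84% and 17.1% of all genes. Their median was 0.65, against -0.18 for all genes. Fosb was at 479, 1842, 673 and 407 CPM, the nuclear receptor Nr4a1 at 197, 755, 269 and 222 CPM, and Fosl2 at 3.41, 53.5, 13.6 and 13.1 CPM. Atf3, which stress signals also induce, was at 7.81, 94.1, 27.0 and 15.2 CPM. The lower members were Dusp1, Dusp6, Gadd45b and Nfkbiz. Genes of MHC class I and antigen presentation were higher in 6 of 11 cases and lower in 0, against the same shares of all genes, with a median of 0.62. B2m, the invariant chain of class I molecules, was 3.06-fold higher and the transcription factor Irf1 2.83-fold, in cells from which interferon-high cells had been removed.

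Of 27 receptor and G-protein signalling genes, 10 were lower with Cre and 4 higher, with a median of -0.39. All genes also leaned lower (17.1% against 7.84%), and under median-of-ratios scaling 6 of these receptors were lower and 5 higher. Glp1r was 2.12-fold lower, the purine receptor P2ry1 3.95-fold lower (251, 63.5, 92.0 and 131 CPM) and Rgs2, which limits Gq signalling, 2.17-fold lower, while the adenosine receptor Adora2b was 10.4-fold higher (4.55, 47.4, 12.5 and 16.2 CPM). Of 28 glucose-sensing and excitability genes, 6 were lower (Slc2a2, Pfkm, Pcx, Gpd2, Kcnj11 and Scn3a) and 2 higher (Cacnb3 and Trpm5), with a median of -0.22. Both the count and the median were close to those of all genes (17.1% lower, median -0.18). Of 28 beta cell transcription factors, 7 were lower, among them Esrrg at 2.51-fold and Sox4 at 2.30-fold, and the corepressor Tle3 was 1.97-fold higher. The median of the factors was -0.07 and changed sign between settings, from -0.08 to 0.11. Of 32 granule and processing genes, the amidating enzyme Pam and the convertase Pcsk1 were lower, at 2.06-fold and 1.81-fold, and Pdia4 higher.

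A small set of genes was nearly confined to Cre-negative members. Zfp423 (chr8:87661810-87959595, minus strand), a zinc finger factor, was at 28.0, 0.0682, 0.124 and 0.103 CPM, 410-fold lower with Cre (113 to 3393) on 2 against 885 UMIs. Moxd1, a monooxygenase-like protein, was at 25.9, 0.170, 0.0498 and 0.0688 CPM. Dlk1 (chr12:109452823-109463336, plus strand), an imprinted Notch-like membrane protein, was at 201, 9.75, 0.909 and 3.43 CPM, 20.6-fold lower. Rbp4 had the same order, at 151, 42.3, 6.61 and 25.4 CPM. The Cre-negative members were above every other library for each of these genes, including the control offspring. Without the Ins1-poor cells, Dlk1 was 12.1-fold lower with Cre.

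Both control libraries can be set side by side for the same reason. Of 6287 genes, 1056 (16.8%) were at least 1.5-fold higher in Cre-negative than in control offspring members and 248 (3.94%) lower. Scaling by the median of ratios gave 446 and 488 instead. Ucn3 was 5.18-fold lower, Mafa 2.87-fold lower and Nupr1 47.0-fold lower in Cre-negative members. Dlk1 was 221-fold, Zfp423 225-fold and Rbp4 22.9-fold higher. Of the heat shock genes 9 of 19 were lower and 1 higher, with a median of -0.49 against 0.26 for all genes. Cre-positive members differed from control offspring in fewer genes, 394 (6.72%) higher and 125 (2.13%) lower of 5860. These comparisons share libraries with each other and are not independent.

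**Figure D5:**
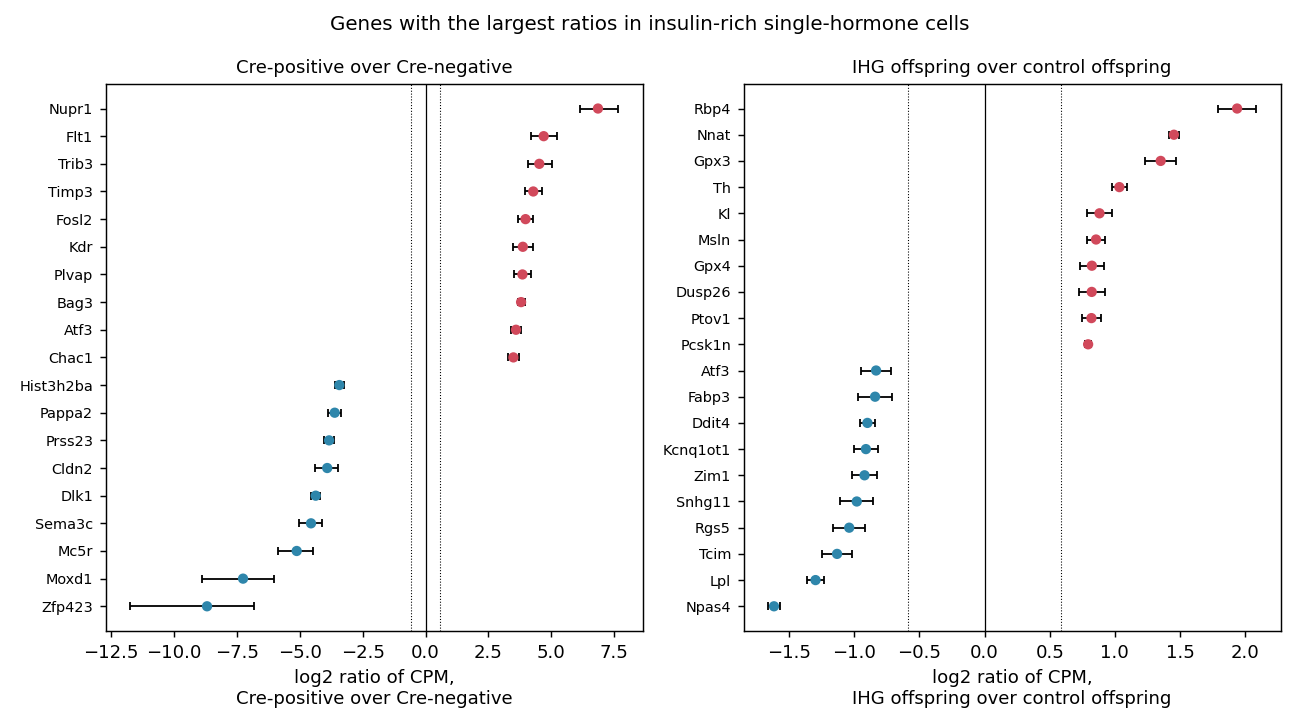
Ratio of levels (log2, with exact 95% counting intervals) for the genes that lead each comparison in either direction, Cre-positive over Cre-negative and IHG over control offspring, with dotted lines at 1.5-fold. The Cre-positive ratios reach 115-fold higher for Nupr1 and 410-fold lower for Zfp423, and those of IHG offspring stay between 3.84-fold higher for Rbp4 and 3.07-fold lower for Npas4.

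RNA of endothelial cells moved with the Cre comparison. Flt1, Plvap and Kdr, which mark capillary endothelium, were 25.9-fold, 14.4-fold and 14.6-fold higher in Cre-positive members, and Timp3 19.4-fold. The summed level of 10 endothelial markers was 20.2, 137, 118 and 87.1 CPM, and 0 of the 10 were at zero in any library. Members with 3 or more of them detected numbered 9, 69, 181 and 75, or 0.317%, 2.80%, 1.66% and 1.25%. Without members that had 3 or more endothelial, macrophage or stromal markers, the ratios were 5.51-fold for Flt1, 3.84-fold for Plvap, 3.04-fold for Kdr and 5.99-fold for Timp3. Without the top 6% of doublet scores they were 9.37-fold, 5.54-fold, 5.14-fold and 8.37-fold. Cre-negative members were thus low in endothelial RNA beside every other library, and its part in the other ratios was not tested. Summed macrophage markers were at 16.1, 32.8, 20.2 and 38.4 CPM and stellate and fibroblast markers at 7.17, 32.8, 46.2 and 36.6 CPM. Gcg, a gene of the rule, was at 300, 1597, 481 and 779 non-insulin CPM.

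The last comparison asks how beta cells of offspring exposed to maternal hyperglycaemia differed from those of control offspring. Fewer genes were called. Of 5528 genes, 29 (0.525%) were at least 1.5-fold higher in IHG offspring members and 42 (0.76%) lower, with a median over all genes of -0.07. Of the called genes 40.8% were higher, but 60.9% (39 against 25) under median-of-ratios scaling, and 62.6% (72 higher and 43 lower) when hormone and mitochondrial genes were left out of the scaling. Among the markers, Mafa was 1.54-fold lower (1.52 to 1.55), 1.47-fold with median-of-ratios scaling. Ucn3, Slc2a2, Iapp, Pdx1 and Nkx6-1 were all within 1.5-fold.

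The retinol carrier Rbp4 led the higher set. It was 3.84-fold higher (3.47 to 4.24), and 3.51-fold without the Ins1-poor cells. Rbp4 is also a marker of delta cells, whose defining genes Sst and Hhex stood at 256 and 1.16 CPM in control and 267 and 0.706 CPM in IHG offspring members. The 9 delta markers summed to 589, 508, 299.7 and 329 CPM, and their part in the Rbp4 ratio was not tested. Nnat (chr2:157560078-157562522, plus strand), an imprinted membrane protein of the endoplasmic reticulum, was at 119, 124, 88.0 and 241 CPM, 2.74-fold higher. Gpx3 was at 41.3, 17.7, 11 and 28.0 CPM, 2.55-fold higher, and 2.21-fold without the Ins1-poor cells. Th, the tyrosine hydroxylase of catecholamine synthesis, was at 64.4, 67.0, 52.8 and 108 CPM, and Pcsk1n, an inhibitor of the convertase PCSK1, at 292, 363, 320 and 555 CPM. Nnat, Th and Pcsk1n were higher in IHG offspring than in all 3 other libraries, while Rbp4 and Gpx3 were higher still in Cre-negative members.

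An activity gene led the lower set. Npas4 (chr19:4984355-4990316, minus strand), a transcription factor induced by calcium entry, was at 100, 99.3, 254 and 82.8 CPM, 3.07-fold lower in IHG than in control offspring (2.97 to 3.17). The control offspring library was alone in being high. Npas4 had a UMI in 17.3%, 21.8%, 39.1% and 16.1% of members thinned to 3000 UMIs, against 2.78%, 3.75%, 5.64% and 2.11% of endothelial cells, and in 31.8%, 46.3%, 55.2% and 29.9% of members before thinning. Lipoprotein lipase (Lpl) was at 77.4, 85.3, 95.5 and 38.8 CPM, 2.46-fold lower. Ddit4, an inhibitor of mTOR signalling, was at 239, 42, 117 and 62.7 CPM, 1.87-fold lower. Tcim was 2.19-fold lower and the imprinted genes Zim1 and Kcnq1ot1 1.89-fold and 1.88-fold lower. Rgs5 was 2.06-fold lower, but 1.57-fold without members that carried 3 or more markers of other cell types and 1.28-fold among members at 20% insulin or more.

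As a list, activity-induced genes were lower in IHG offspring in 8 of 25 cases, against 0.76% of all genes, and higher in 0, with a median of -0.40 that lay between -0.41 and -0.32 over 14 settings. The 8 were Npas4, Fosb, Egr1, Atf3, Klf2, Dusp1, Gem and Nfkbiz. Fosb was 1.66-fold lower, Atf3 1.78-fold, Gem 1.75-fold and Dusp1 1.59-fold. The same direction was seen in endothelial cells: thinned to 3000 UMIs, Fosb had a UMI in 98.2% of control and 48.6% of IHG offspring endothelial cells, and Atf3 in 76.7% and 31.3%. In members these shares were 65.5% and 41.9% for Fosb and 5.52% and 3.20% for Atf3, so the lower shares were not confined to members. Of 19 heat shock genes, 2 (Hspb8 and Dnajb1) were lower and 0 higher, with a median of -0.25. Of 33 genes of the unfolded protein and integrated stress responses, 1 (Ppp1r15a) was lower and 0 higher, and of 24 transcription factors Mafa was lower and 0 were higher. Of 21 imprinted genes, 1 (Nnat) was higher and 3 (Zim1, Kcnq1ot1 and Nap1l5) lower. Of 54 oxidative phosphorylation genes and 27 glucose-sensing genes, 0 were called in either direction.

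The upstream windows of Npas4 and Fosb are shown because these genes were called in IHG offspring and Fosb also, in the other direction, with Cre. Npas4 lies at chr19:4989972-4990221 and Fosb at chr7:19310046-19310295, both on the minus strand. Capitals mark the cAMP response element core TGACG, on either strand (CGTCA).
Npas4: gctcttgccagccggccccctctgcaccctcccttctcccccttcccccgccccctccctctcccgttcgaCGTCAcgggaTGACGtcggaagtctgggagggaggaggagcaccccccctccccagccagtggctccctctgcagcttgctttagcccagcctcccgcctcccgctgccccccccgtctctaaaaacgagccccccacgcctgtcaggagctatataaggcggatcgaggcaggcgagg
Fosb: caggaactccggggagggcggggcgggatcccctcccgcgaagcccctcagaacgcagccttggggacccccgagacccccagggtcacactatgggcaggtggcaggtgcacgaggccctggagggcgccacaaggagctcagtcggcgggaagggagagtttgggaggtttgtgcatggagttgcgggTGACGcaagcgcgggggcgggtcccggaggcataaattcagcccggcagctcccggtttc
The core lay 179 and 169 bases before the Npas4 start and 60 bases before the Fosb start. It was found in 18 of 29 matched activity-induced genes, or 61.1% of their 36 windows, against 17.8% of all windows. In the windows of granule and processing genes it was found in 46.7% and in those of the stress responses in 32.5%. The full element TGACGTCA was also searched for, with 0 matches in the Npas4 window and 0 in the Fosb window. It was found in 3 of the 29 matched activity-induced genes, or 8.33% of their windows, against 1.55% of all windows.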

How the data were processed

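Single-cell RNA sequencing of islet cells gave 1 matrix per group, and the authors deposited whole-number counts of UMIs per gene and cell barcode, not normalized. The submitters' processing notes name Cell Ranger, Seurat and mm10, without version or role. The sources used here do not give the aligner, annotation, barcode filter, strand use or mice per library. Overlapping genes could therefore share reads, and close paralogs (Ins1 and Ins2, Hspa1a and Hspa1b, Mt1 and Mt2, the H2 genes) could split them. Gene positions are from GENCODE vM21 on GRCm38, in which 32158 of 32285 gene IDs were found, and promoter windows from RefSeq on GRCm38.p6, where Ins2 and Mafa had no entry.

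Member UMIs were summed per library and divided by their total. A gene was tested at 20 CPM in either library and called at 1.5-fold, and a count of 0 was set to 3 UMIs. Ratio intervals are exact conditional binomial intervals, level intervals exact Poisson and share intervals Clopper-Pearson. Thinning drew 3000 UMIs per cell, and left out 47, 102, 287 and 68 shallower members. Cells with 4 or more endothelial markers and under 10% insulin served as background for shares. Doublets were not removed, and leaving out the top 6% of Scrublet scores (scanpy 1.11.5) was an alternative. Ratios and intervals were tested on simulated data. Other tools were Python 3.11.15, pandas 2.3.3, numpy 2.4.6, matplotlib 3.10.9 and scipy 1.17.1.

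Named genes are the 10 higher and 10 lower genes per comparison whose interval bound nearest 1 lies farthest from 1, the 6 markers, up to 6 genes per list with the largest ratios, and for the insulin quartiles and cell-to-cell variation the 10 leading genes. Others named were chosen after their values were seen, as were the comparisons by Ins1 share and the tail at 50% insulin. Some genes of these rules are not reported here. Members and gene lists were chosen with earlier results of these data known.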

Additional observations from a re-analysis of the deposited data

How the results depend on the processing

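No paired analysis was possible because each group had 1 library, which holds for differences between groups; quartiles and Ins1-poor cells were compared within each library. Leaving out a replicate was not possible for the same reason. A comparison of members at 40% insulin or more with those at 10% to under 20% was not run, since the Cre-negative library had 20 such cells. Counts of genes at least 1.5-fold higher and lower with Cre moved from 504 and 1099 to 764 and 635 with median-of-ratios scaling, 268 and 525 at a floor of 50 CPM, 2250 and 3325 with 10 UMIs in place of the CPM floor, and 214 and 296 at 2-fold. For IHG over control offspring, 29 and 42 became 13 and 19 at a floor of 50 CPM, 829 and 1198 with 10 UMIs in place of the floor, and 4 and 5 at 2-fold. There, 72 were higher without hormone and mitochondrial genes in the scaling, and 25 lower with median-of-ratios scaling. For Cre-negative over control offspring, 1056 and 248 became 446 and 488 with median-of-ratios scaling, 479 and 124 at 50 CPM, 3434 and 1986 with 10 UMIs, and 304 and 98 at 2-fold, with 514 lower without hormone and mitochondrial genes in the scaling. The thresholds act by construction; the cause of the shifts between scalings was not tested.

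The share of members was 33.1%, 18.9%, 64.9% and 47.6% at an insulin threshold of 20%, and 45.6%, 22.7%, 61.3% and 43.5% at a mitochondrial limit of 10%. With other hormones below 0.5% it was 46.4% in Cre-negative, 24.7% in Cre-positive and 68.4% in control offspring. With other hormones below 2% it was 49.2% in Cre-negative, 70.3% in control offspring and 51.1% in IHG offspring. At an insulin threshold of 5% it was 50.1% in Cre-negative, and without the top 6% of Scrublet scores 71.1% in control offspring and 51.2% in IHG offspring. Without the Ins1-poor cells, 6 genes were lower in the insulin-rich quartile of all 4 libraries: Adgrf5, Gpx3, Gata6, Cd81, Itpr1 and Gnai1.

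Of the 26 genes picked for the Cre comparison, all kept their direction and their side of 1.5-fold under 10 settings of scaling and cell choice. Averaging over cells in place of summing moved 7 of them by over 1.5 times, among them Flt1 to 12.7-fold, Timp3 to 7.50-fold, Plvap to 5.79-fold and Kdr to 7.33-fold higher, and Zfp423 to 246-fold and Moxd1 to 278-fold lower. At an insulin threshold of 20%, Kdr was 8.36-fold higher and Moxd1 430-fold lower. Of the 26 genes of the other comparison, Rgs5 (1.28-fold lower at 20% insulin) and Mafa (with either other scaling, or without cells at 50% insulin) fell under 1.5-fold. Settings without members rich in markers of other types, poor in Ins1 or at 50% insulin were chosen after seeing the data.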

Other observations

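Some gene groups have no place in the comparisons above. With Cre, 6 of 24 antioxidant and metallothionein genes were at least 1.5-fold higher (Gpx1, Gpx4, Hmox1, Sqstm1, Mt1 and Mt2) and 3 lower (Gpx3, Prdx4 and Gclc). Over all genes 7.84% were higher and 17.1% lower. The median of the antioxidant and metallothionein genes was 0.03 on the log2 scale, against -0.18 for all genes. Hmox1, the haem-degrading oxygenase, stood at 6.04, 28.3, 19.6 and 13.1 CPM in Cre-negative, Cre-positive, control and IHG offspring members. Of 53 nuclear genes of oxidative phosphorylation, 5 (against 7.84% of all genes, so near the background) were higher with Cre, among them the complex I subunits Ndufa11 and Ndufv1 at 2.22-fold and 2.12-fold, and Ndufa4 was 2.63-fold lower. Epithelial keratin genes were also higher, with Krt8 at 88.2, 327, 131 and 112 CPM and Krt18 at 90.4, 255, 96.1 and 99.3 CPM. The tetraspanin Cd81 was at 308, 93.3, 67.9 and 57.9 CPM, highest in Cre-negative members. The imprinted gene Ndn was at 161, 66.9, 41.6 and 54.2 CPM and had the same highest library. The thioredoxin inhibitor Txnip was at 789, 327, 354 and 262 CPM.

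The cells that carried insulin and Ppy at 1% or more numbered 8, 97, 82 and 64. Their Mafa was at 165, 176, 574 and 468 CPM of UMIs that were not insulin, below that of members in each library, and the 8 Cre-negative cells allow no more than a rough value.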
